A study of Mus musculus with 25 samples.

Results

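Among 10 mice that lacked Bin1 in Thy1-expressing neurons, 4 had sorted microglia with high levels of Fos and 6 did not, and these 2 sets of homozygous mice are described here side by side. The set called Fos-high held the homozygous mice with Fos above 100 CPM (counts scaled to a common library total), and the set called Fos-low held the other 6, so 4 of 10 homozygous mice and 4 of 23 mice in all were members. Mice are named by sex (F or M) and the animal number of their title. The values that chose the members were 923 CPM in M-0328, 1233 in M-0329, 1508 in F-0333 and 859 in F-0342. In the Fos-low mice they were 7.36 CPM in F-0357, 5.41 in M-0344, 2.11 in M-0436, 1.17 in M-0437, 0.925 in F-0432 and 0.371 in F-0440. The mouse just inside the threshold was F-0342 and the mouse just outside it was F-0357. Because the sets were made from a measured level of these same libraries, the comparisons of Fos-high with Fos-low mice below are a description and carry no test.

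The samples are RNA-seq libraries of sorted microglia, each from a single 3-month-old mouse, 23 in all. Homozygous mice (Bin1-Homo, 5 females and 5 males) were Bin1flox/flox Thy1-Cre+, heterozygous mice (Bin1-Het, 7) were Bin1flox/wt Thy1-Cre+, and WT littermates (Bin1-WT, 6) were Bin1flox/wt Thy1-Cre-, so that the controls also carried 1 floxed allele. All descended from the strains B6.129S6-Bin1tm2Gcp/J and FVB/N-Tg(Thy1-cre)1Vln/J. The Thy1 promoter drives Cre in forebrain excitatory neurons and not in the microglia that were measured, and CD11b+ CD45med cells were sorted by FACS from whole brain without cerebellum and olfactory bulbs after Accutase treatment in the cold and Percoll separation. The sample titles carry an animal number in the 02xx range for every WT and heterozygous mouse and in the 03xx or 04xx range for every homozygous mouse. What the number stands for is not stated, and genotype and number range cannot be told apart.

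Fos, Fosb, Jun, Junb and Jund encode subunits of the AP-1 transcription factor. Together with Egr1, Ier2 and Dusp1 they belong to the immediate-early genes, which are transcribed within minutes of a stimulus through factors already present in the cell, such as the serum response factor with its Elk partners and CREB. Their transcripts are short lived, and their products include inhibitors of the pathway that induced them. In microglia these genes respond to injury and inflammatory stimuli and also to the handling of tissue during cell isolation.

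Bin1, deleted in neurons and not in the sorted cells, was measured at 502 ± 139 CPM (SD, n = 4) in Fos-high and 467 ± 135 CPM (SD, n = 6) in Fos-low mice, with means of 692 CPM in heterozygous and 699 CPM in WT mice. The Bin1 level therefore did not separate the sets. Total counts per library ranged from 10812969 to 16734846, so that 1 CPM stood for 11 to 17 counts. Levels below are CPM after TMM scaling, and values in the Fos-high mice are given in the order M-0328, M-0329, F-0333 and F-0342. The 11 microglia markers, among them Cx3cr1, P2ry12 and Tmem119, summed to 55384 to 62760.3 CPM in the Fos-high mice, 54204 to 63405 in the Fos-low mice, 58807 to 78847 in heterozygous mice and 62895 to 90119.9 in WT littermates, so that the Fos-high and Fos-low ranges overlapped almost fully. The share of counts on mitochondrial genes was 0.220% to 0.314% in the Fos-high and 0.319% to 0.456% in the Fos-low mice, ranges that did not overlap, against 0.247% to 0.538% in heterozygous and 0.173% to 0.411% in WT mice, and its part in the results was not tested. Of the stretches of consecutive protein-coding genes listed at 0 in all 23 mice, 3 autosomal ones spanned 19.8 to 20.8 Mb each, on GRCm38 chr1:115684756-136531511, chr1:143598800-163725232 and chr2:3114224-22940266. Btg2, Elk4, Il10, Ier5, Ptgs2, Rgs1, Rgs2, Gad2, Mrc1 and Pfkfb3, members of the gene lists used here, lie there and are not interpreted here. Levels come from bulk RNA, in which fewer cells of a type and less RNA per cell cannot be told apart.

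The sequences just upstream of leading genes are shown first, because the genes that differed most are known targets of a few inducible factors. Promoters (250 bases before to 50 after the start, from RefSeq on GRCm38.p6) could be matched for 41 of 100 genes (0.855% of 11702). These 100 genes were higher in every Fos-high than in every Fos-low mouse, with a difference in mean log2 CPM of at least 2-fold. Egr1 and Ier2 had no promoter in this source and are not among the 41. The promoters of Fos, Dusp1, Fosb and Jun are printed 5′ to 3′ along the gene's strand, and that of Klf2, with 1 CRE half-site, is not printed. Capitals mark matches, on either strand, to TGACGTCA (the cAMP response element, CRE), to its half-site TGACG, which is contained in the full element, to TGANTCA (AP-1), to the CArG box of the serum response factor and to the NF-kB motif.
Fos promoter, chr12:85473640-85473939, plus strand: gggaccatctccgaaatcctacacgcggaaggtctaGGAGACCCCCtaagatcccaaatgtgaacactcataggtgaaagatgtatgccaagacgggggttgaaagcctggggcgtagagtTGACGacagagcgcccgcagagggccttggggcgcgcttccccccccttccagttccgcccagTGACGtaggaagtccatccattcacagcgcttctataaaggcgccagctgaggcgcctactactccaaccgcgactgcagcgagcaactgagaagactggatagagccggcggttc
Dusp1 promoter, chr17:26508423-26508722, minus strand: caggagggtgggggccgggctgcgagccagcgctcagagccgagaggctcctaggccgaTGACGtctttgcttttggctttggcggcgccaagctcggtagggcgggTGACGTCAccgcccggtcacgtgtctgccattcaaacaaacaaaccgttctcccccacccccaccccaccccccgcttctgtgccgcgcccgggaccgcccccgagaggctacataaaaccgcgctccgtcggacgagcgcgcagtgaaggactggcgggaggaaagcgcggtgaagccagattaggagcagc
Fosb promoter, chr7:19309996-19310295, minus strand: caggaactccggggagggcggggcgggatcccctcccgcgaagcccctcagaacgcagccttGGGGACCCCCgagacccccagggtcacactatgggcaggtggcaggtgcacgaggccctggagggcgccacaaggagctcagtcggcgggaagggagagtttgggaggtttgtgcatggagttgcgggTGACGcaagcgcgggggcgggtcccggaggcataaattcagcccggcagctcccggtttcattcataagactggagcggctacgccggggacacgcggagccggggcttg
Jun promoter, chr4:95052173-95052472, minus strand: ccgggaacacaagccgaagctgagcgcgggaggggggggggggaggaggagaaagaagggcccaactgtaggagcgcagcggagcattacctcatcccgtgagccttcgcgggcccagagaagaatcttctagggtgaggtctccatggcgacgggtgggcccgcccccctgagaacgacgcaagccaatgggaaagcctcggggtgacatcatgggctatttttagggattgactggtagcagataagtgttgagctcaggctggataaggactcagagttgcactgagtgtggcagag
Dusp1 held the full CRE, between 143 and 136 bases before its start, and a further half-site upstream of it. Fos held 2 half-sites and 1 NF-kB match, Fosb held 1 of each, and Jun held none of these motifs in this window. By gene, 2 of the 41 higher genes (4.88%, Zfp36 and Egr2) held a CArG box in at least 1 promoter, against 1.43% of 8666 matched genes that passed the expression filter and 1.81% of all 27025 genes of the table. Of the 10 lower genes that were matched, 1 held it as well. The CRE was found in 4.88% of higher genes against 3.76% of genes that passed and 2.03% of all, its half-site in 41.5% against 36.5% of genes that passed and 6228 of all 27025, the NF-kB motif in 12.2% against 6.07% and 5.14%, and TGANTCA in 0 of 41 against 5.67% and 8.97%. A match describes the letters of the window and not a bound site. Sites farther upstream than 250 bases, and sites that depart from these patterns, were not searched. A motif not found here, as in Fos or Jun, is thus not shown to be absent from the gene.

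The rule used Fos alone, and the genes named with it followed the same split of the homozygous mice. Fos (ENSMUSG00000021250, chr12:85473890-85477273) was at 926, 1207, 1459 and 824 CPM in the Fos-high mice and at 0.363 to 6.999 CPM (median 1.54) in the Fos-low mice. The 2 sets were far apart, with F-0342 the lowest of the high and F-0357 the highest of the low mice, and WT and heterozygous mice had 0.0677 to 1.73 CPM. Egr1, a zinc finger transcription factor (ENSMUSG00000038418), was at 2965, 2833, 3490.5 and 1577 CPM in the Fos-high mice and at 12.7 to 22.9 CPM (median 13.5) in the Fos-low mice. Dusp1 (ENSMUSG00000024190, chr17:26505590-26562128), a phosphatase that inactivates p38, JNK and ERK, was at 607, 785, 973 and 440.1 CPM in the Fos-high mice and at 5.01 to 11.3 CPM (median 6.99) in the Fos-low mice. For both genes the set ranges were separate and F-0342 was the lowest of the Fos-high mice. Ier2 (ENSMUSG00000053560, chr8:84661331-84662852), a nuclear immediate-early protein, was at 1012, 815, 803 and 418 CPM in the Fos-high mice and at 16.9 to 44.2 CPM (median 20.02) in the Fos-low mice. Here M-0328 was the highest, F-0342 again the lowest of the 4, and M-0344 and M-0436 stood above the other Fos-low mice.

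In mean levels, Fos was at 1104 ± 287 CPM (SD, n = 4) against 2.78 ± 2.72 CPM (SD, n = 6), a difference in mean log2 CPM of 9.10 ± 1.18 (Fos-high minus Fos-low, ± the pooled SD within sets, with a prior count of 2, as for all differences below). The difference was 7.401 ± 0.42 for Egr1, with 2716 ± 811 CPM (SD, n = 4) against 15.7 ± 4.24 CPM (SD, n = 6). For Dusp1 it was 6.55 ± 0.45, with 701 ± 229.6 CPM (SD, n = 4) against 7.28 ± 2.31 CPM (SD, n = 6). For Ier2 it was 4.89 ± 0.57, with 762 ± 249 CPM (SD, n = 4) against 26.1 ± 11.6 CPM (SD, n = 6). Each of these differences was several times the pooled SD within sets, and the prior count makes differences of genes near 0 smaller than the ratio of their means. The 13 WT and heterozygous mice had 6.003 to 11.96 CPM of Egr1, 1.67 to 7.04 of Dusp1 and 9.23 to 23.6 of Ier2, below every Fos-high mouse for each gene. Egr1 in the 6 Fos-low mice was above all 13 of them, by a small margin.

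**Figure D1:**
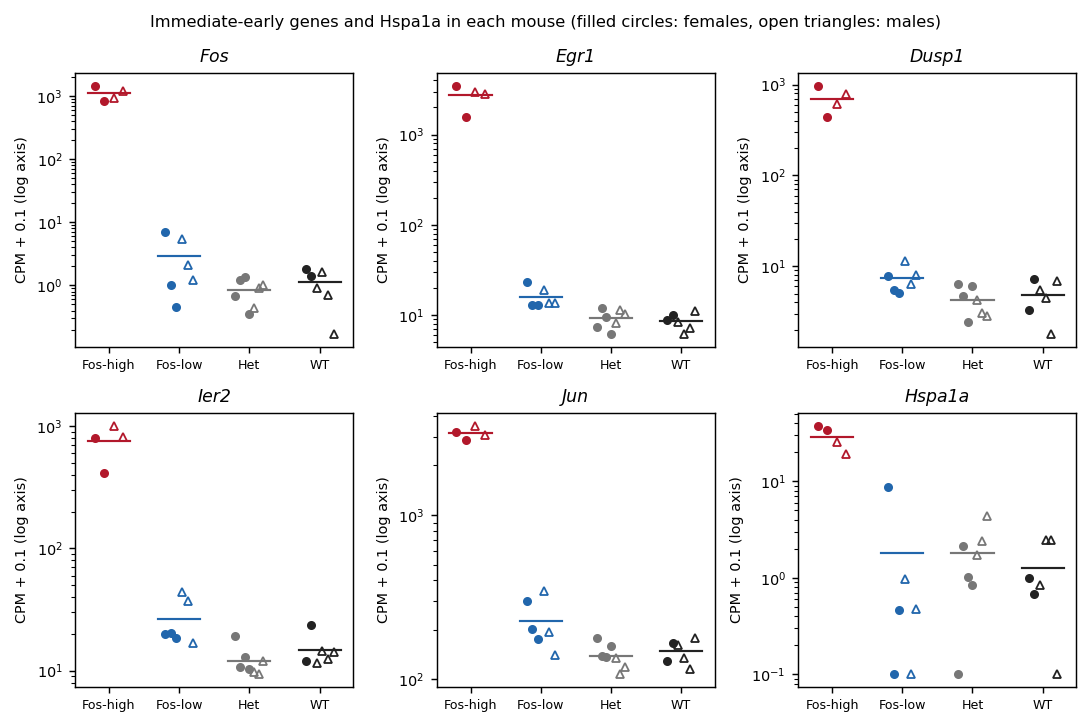
Levels of Fos, Egr1, Dusp1, Ier2, Jun and Hspa1a in each mouse, as CPM + 0.1 on a log axis, in 4 Fos-high and 6 Fos-low homozygous, 7 heterozygous (Het) and 6 WT mice. Filled circles are females, open triangles males and horizontal lines means. The 4 Fos-high mice stand above all other mice in every panel, and the Fos-low mice lie far below them, with Egr1 from 12.7 to 22.9 CPM in Fos-low against 6.003 to 11.96 CPM in heterozygous and WT mice.

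Fos-high and Fos-low mice are next set beside the labels, with no test. All 4 Fos-high mice were in the 03xx range, namely M-0328, M-0329, F-0333 and F-0342, and the other 2 mice of that range, M-0344 and F-0357, were Fos-low, as were all 4 mice of the 04xx range. The 4 lowest of the 10 animal numbers were thus those of the Fos-high mice. Each set held both sexes, 2 females and 2 males in the Fos-high and 3 and 3 in the Fos-low mice. Whether the numbers stand for litters, dates or another order was not tested and is not given in the sources used here.

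**Figure D2:**
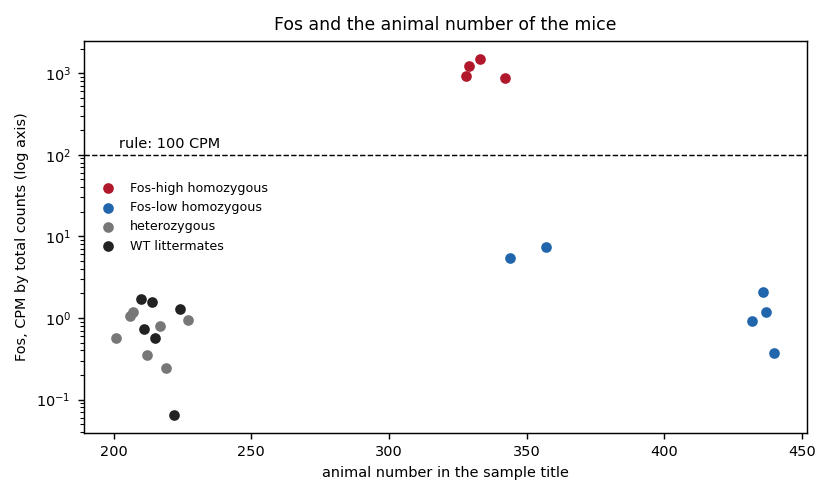
Fos in CPM by total counts (log axis) against the animal number in the sample title, 1 point per mouse, coloured by set, with the 100 CPM threshold as a dashed line. Fos was at 859 CPM or more in the 4 homozygous mice numbered up to F-0342 and at or below 7.36 CPM in the 6 numbered from M-0344 onward, while all mice of the 02xx range lay at 1.70 CPM or less.

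Few genes had levels that were apart between the sets. Of 11702 genes with a mean of at least 1 CPM over the homozygous mice, 100 (0.855%) were called higher and 24 (0.205%) were called lower. A gene was called higher when all 4 Fos-high mice were above all 6 Fos-low mice, and lower when all were below. The mean log2 CPM of the sets also had to differ by at least 2-fold, while the ranges needed only to be apart. Higher and lower genes are meant in this sense in the following. The filter favours genes that are high in either set, and 31 of the 100 had a Fos-low mean under 1 CPM and 10 of the 24 a Fos-high mean under 1 CPM. With at least 1 CPM in each set, 69 were higher and 14 lower. Without the fold threshold, 383 genes (3.27%) were higher and 205 (1.75%) lower with ranges that did not overlap. The median difference over all 11702 genes was 0.00338 on the log2 scale. The Fos-high mice did not contribute equally. F-0333 had the highest level of the 4 in 42 of the 100 higher genes and M-0328 in 31, whereas F-0342 had the lowest level in 47. Among Fos-low mice, M-0344 was the highest in 34 of the 100 genes and F-0357 in 19. Both of these 03xx mice stood above all 4 mice of the 04xx range in 22% of the 100 genes, against 6.73% of all 11702 genes. Among those at 8 CPM or more, the 15 largest differences belonged to Fos, Egr1, Hspa1a, Dusp1, Ier2, 1700023H06Rik, Hist4h4, Klf2, Jun, Gm10382, Ier3, Hist1h2bg, Junb, Hist1h3e and Ppp1r15a, from 9.10 to 2.71 on the log2 scale. The 100 genes included 50 protein-coding genes, and the rest were mostly antisense and other non-coding transcripts and pseudogenes of a few CPM.

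**Figure D3:**
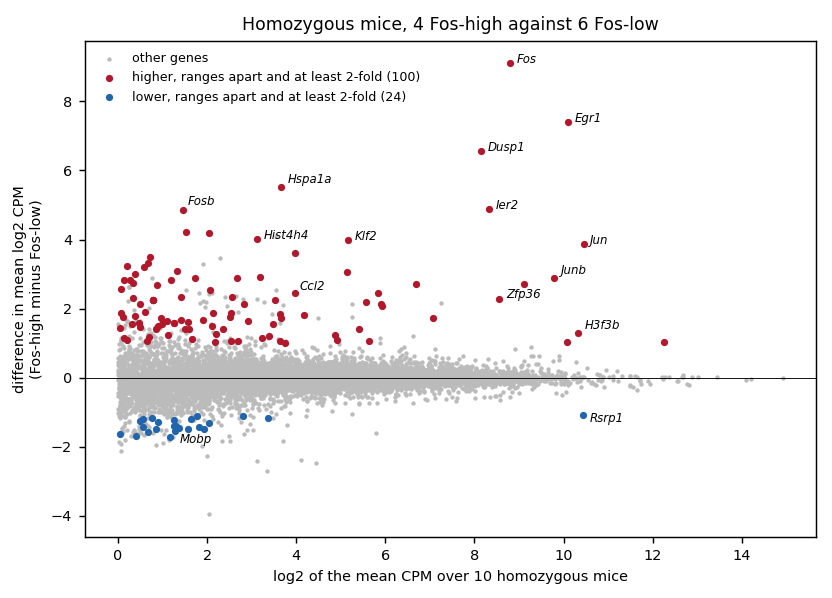
Difference in mean log2 CPM between 4 Fos-high and 6 Fos-low homozygous mice (vertical axis) against the log2 mean CPM over the 10 mice (horizontal axis), 1 point per gene that passed the filter. The 100 higher and 24 lower genes, with ranges apart and a difference in mean log2 CPM of at least 2-fold, are coloured. The rest of the 11702 genes lie around a median of 0.00338, with Fos at 9.10 and Egr1 at 7.401 the farthest from it.

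Of 13 AP-1 genes 11 passed the filter, and 5 of the 11 were called higher and 0 lower, against 0.855% and 0.205% of all genes, with a median difference of 0.77 over the 11 and 10 of 11 above 0. Since Fos belongs to them, the list was not independent of the rule. Jun (ENSMUSG00000052684, chr4:95049034-95052222), the main dimer partner of Fos, was at 3495, 3061, 3197 and 2875 CPM in the Fos-high mice and at 140.1 to 343 CPM (median 198) in the Fos-low mice. The difference in Jun was 3.87 ± 0.39, and both Fos-low mice of the 03xx range were above the 4 of the 04xx range. Junb was at 2391, 1761, 1818 and 1355 CPM in the Fos-high mice and at 213.9 to 298 CPM (median 241) in the Fos-low mice, a difference of 2.88 ± 0.24. Jund was at 747, 716, 783 and 627 CPM in the Fos-high mice and at 129 to 166 CPM (median 146) in the Fos-low mice, a difference of 2.29 ± 0.15. All 3 Jun genes were thus higher in each Fos-high mouse than in any Fos-low mouse, and F-0342 was the lowest of the 4 in each. Fosb, a short-lived relative of Fos, was at 3.35, 7.12, 10.3 and 6.12 CPM in the Fos-high mice and at 0 to 0.280 CPM (median 0.0370) in the Fos-low mice. It was nearly absent from the Fos-low mice, so its difference of 4.85 ± 0.70 rests on a group near 0.

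The other AP-1 members overlapped between the sets. Atf3, a stress-induced member of the ATF family, was at 46.5, 36.4, 74.8 and 29.5 CPM in the Fos-high mice and at 22.4 to 32.5 CPM (median 24.3) in the Fos-low mice, a difference of 0.77 ± 0.39. Fosl2 differed by 0.34 ± 0.50, with 11.6 ± 2.94 CPM (SD, n = 4) against 9.60 ± 4.70 CPM (SD, n = 6). Mafk, a small Maf protein, differed by -0.17 ± 0.14, Batf3 by 0.11 ± 0.11, Jdp2 by 0.06 ± 0.38 and Batf by 0.06 ± 0.20. Of the family, Fos, Fosb and the 3 Jun genes had separate ranges, and these 6 did not.

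Of 25 other immediate-early genes 15 passed the filter, and 6 of the 15 were called higher and 0 lower, against 0.855% and 0.205% of all genes, with a median difference of 0.62 and 13 of 15 above 0. Besides Egr1 and Ier2 these were Klf2, Ier3, Klf4 and Egr2. Klf2, a Krüppel-like factor that restrains NF-kB activity in myeloid cells, was at 91.0, 68.6, 141 and 29.6 CPM in the Fos-high mice and at 1.48 to 7.07 CPM (median 5.31) in the Fos-low mice, a difference of 3.98 ± 0.85. Ier3, an early response gene linked to survival under stress, was at 106, 69.5, 77.8 and 48.1 CPM in the Fos-high mice and at 5.88 to 11.5 CPM (median 8.81) in the Fos-low mice, a difference of 3.07 ± 0.39. For both, the Fos-low mice overlapped the 4.05 to 10.9 CPM of Klf2 and 2.23 to 8.46 CPM of Ier3 in WT and heterozygous mice. Klf4 differed by 2.53 ± 0.76, with 8.46 ± 4.13 CPM (SD, n = 4) against 1.37 ± 0.688 CPM (SD, n = 6). Egr2 differed by 1.56 ± 0.48, with 18.9 ± 6.41 CPM (SD, n = 4) against 6.13 ± 1.66 CPM (SD, n = 6). Klf6 and Btg1 also had separate ranges, but with differences of 0.62 ± 0.14 and 0.48 ± 0.10. Nr4a1, an orphan nuclear receptor of the same response, was at 5.57, 2.91, 9.19 and 1.77 CPM in the Fos-high mice and at 1.04 to 7.63 CPM (median 2.71) in the Fos-low mice, which overlapped. Myc differed by 0.50 ± 0.39 with overlap, and Egr3, Nr4a2, Nr4a3 and Arc did not reach a mean of 1 CPM.

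Feedback inhibitors of the kinase and cytokine pathways followed, with 5 of 20 called higher and 0 lower, 10 of 20 with separate ranges at any fold, all 10 higher, against 0.855% called higher and 3.27% higher with separate ranges over all genes, and a median difference of 0.62. Dusp1 led them. Zfp36 (tristetraprolin), which speeds the decay of AU-rich transcripts such as Tnf, was at 1235, 952, 1194 and 1122 CPM in the Fos-high mice and at 141 to 248 CPM (median 165) in the Fos-low mice, a difference of 2.70 ± 0.27. Dusp2, a nuclear phosphatase of ERK and p38, was at 11.9, 13.4, 19.4 and 2.66 CPM in the Fos-high mice and at 1.33 to 2.63 CPM (median 1.70) in the Fos-low mice, a difference of 2.34 ± 0.82. M-0344 was the highest Fos-low mouse in both, and its 2.63 CPM of Dusp2 came close to the 2.66 CPM of F-0342. Gadd45b, which binds stress kinases, differed by 1.502 ± 0.60 at 3.08 ± 1.27 CPM (SD, n = 4) against 1.03 ± 0.521 CPM (SD, n = 6). Gadd45g, its relative, differed by 1.42 ± 0.38 at 66.7 ± 5.12 CPM (SD, n = 4) against 25.9 ± 7.67 CPM (SD, n = 6). Socs1, Rhob, Dusp6, Zfp36l1 and Gadd45a had separate ranges under 2-fold, with differences of 0.94, 0.88, 0.64, 0.55 and 0.59. These 5 were thus separate between the sets but of a smaller size than Dusp1 and Zfp36. Socs3, an inhibitor of JAK and STAT signaling, was at 147, 137, 153 and 134 CPM in the Fos-high mice and at 38.6 to 161 CPM (median 50.9) in the Fos-low mice, and its sets overlapped because of M-0436, which had the highest Fos-low value. Upstream of these genes, 0 of 17 kinases and factors of the MAPK and SRF pathway were called, with a median of 0.03. For so few genes 0 calls is near the shares over all genes (0.855% higher and 0.205% lower). Of the 17, 1 was higher with separate ranges under 2-fold. Srf differed by -0.02 ± 0.33, with 16.2 ± 2.47 CPM (SD, n = 4) against 16.8 ± 4.34 CPM (SD, n = 6).

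Heat shock genes split unevenly, with 2 of 20 called higher against 0.855% of all genes, 0 lower and a median difference of 0.12. Hspa1a (ENSMUSG00000091971, chr17:34969190-34972156), the inducible cytosolic Hsp70, was at 25.3, 18.9, 37.7 and 33.5 CPM in the Fos-high mice and at 0 to 8.61 CPM (median 0.366) in the Fos-low mice. F-0357 held the highest Fos-low value of Hspa1a and the other 5 had 0.875 CPM or less, while WT and heterozygous mice had 0 to 4.22 CPM. Its near-identical neighbour Hspa1b was at 2.46, 5.38, 14.9 and 45.8 CPM in the Fos-high mice and at 0.804 to 19.7 CPM (median 0.929) in the Fos-low mice, which overlapped, and how the authors' counting divided reads between the 2 copies is uncertain. Hspb1, the small chaperone Hsp27, was at 7.91, 4.87, 10.1 and 4.35 CPM in the Fos-high mice and at 0 to 0.606 CPM (median 0.262) in the Fos-low mice, a difference of 4.22 ± 0.90. Hspb1 was at 0 to 0.601 CPM in WT and heterozygous mice, the same low level as in the Fos-low mice. Dnajb1 and Hspa5 had separate ranges with differences of 0.49 ± 0.19 and 0.44 ± 0.14, and Hsph1 overlapped with 0.61 ± 0.45. The constitutive chaperones Hsp90ab1, Hspd1 and Hsp90b1 differed by 0.05 ± 0.30, -0.06 ± 0.22 and 0.12 ± 0.18, within the spread of the sets.

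Ppp1r15a (Gadd34), which returns the translation factor eIF2 to its active state after stress, was at 235, 218, 275 and 121 CPM in the Fos-high mice and at 24.9 to 40.9 CPM (median 29.4) in the Fos-low mice, a difference of 2.71 ± 0.39. Of 14 integrated stress response genes 0 were called, against 0.855% of all genes called higher and 0.205% lower, with a median of -0.05. For so few genes 0 calls is near these shares, which also apply to the other lists of this paragraph. Atf4, their main transcription factor, had separate ranges at 149, 178, 188 and 135 CPM in the Fos-high mice and at 100.4 to 133 CPM (median 109) in the Fos-low mice, a difference of 0.52 ± 0.19. Psat1, a serine synthesis enzyme, had separate ranges in the opposite direction, at 15.9, 16.4, 16.8 and 13.2 CPM in the Fos-high mice and at 20.7 to 64.4 CPM (median 21.6) in the Fos-low mice, with the highest value in M-0436. Among glucocorticoid-responsive genes 1 of 10 was called higher, Sgk1, a kinase of ion transport and survival, at 1701, 1480.5, 1771 and 1253 CPM in the Fos-high mice and at 592 to 1028 CPM (median 717) in the Fos-low mice. Sgk1 is also induced by serum and cell stress. Lcn2 had the largest difference of this list, 1.59, with overlap, and the list median was 0.06 with 6 of 10 above 0. The glucocorticoid markers Fkbp5 and Tsc22d3 differed by 0.11 ± 0.36 and 0.90 ± 0.35 with overlap. Of 15 circadian clock genes 0 were called, with a median of 0.20 and 13 of 15 above 0.

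Among the inflammatory lists, chemokines, of which 9 of 14 passed the filter, had 3 of 9 called higher against 0.855% of all genes, 0 lower and a median of 0.55. Ccl3 (MIP-1α), an attractant of monocytes and other leukocytes, was at 90.3, 98.4, 102 and 68.0 CPM in the Fos-high mice and at 16.9 to 25.1 CPM (median 18.6) in the Fos-low mice, a difference of 2.18 ± 0.23. Ccl4 (MIP-1β), a related chemokine, was at 117, 106, 127 and 98.0 CPM in the Fos-high mice and at 21.9 to 30.8 CPM (median 25.9) in the Fos-low mice, a difference of 2.08 ± 0.17. Ccl2, the monocyte attractant MCP-1, was at 30.4, 27.0, 31.0 and 32.8 CPM in the Fos-high mice and at 3.16 to 12.4 CPM (median 4.78) in the Fos-low mice, a difference of 2.44 ± 0.55. The ranges of all 3 were separate, with F-0342 the lowest of the 4 in Ccl3 and Ccl4 and the highest in Ccl2. WT and heterozygous mice had 5.58 to 14.8 CPM of Ccl3, 12.1 to 24.9 of Ccl4 and 0.767 to 2.15 of Ccl2. Ccl7, next to Ccl2 in the genome, was at 3.77, 4.80, 4.37 and 2.84 CPM in the Fos-high mice and at 0.305 to 3.78 CPM (median 1.53) in the Fos-low mice, which overlapped, and Ccl12 differed by 0.55 ± 0.87.

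Among cytokines, NF-kB genes and Toll-like receptors few members were called, as over all genes, of which 0.855% were called higher and 0.205% lower. Tnf, a primary response cytokine, was at 34.3, 23.2, 22.9 and 12.95 CPM in the Fos-high mice and at 2.83 to 16.3 CPM (median 3.92) in the Fos-low mice, a difference of 2.09 ± 0.80. The overlap came from M-0436, the Fos-low mouse with the most Tnf, Socs3, Ccl2 and Psat1. Il1b was at 2.46, 3.42, 3.47 and 3.11 CPM in the Fos-high mice and at 3.30 to 8.99 CPM (median 4.35) in the Fos-low mice, a difference of -0.57 ± 0.43. Osm, an IL-6 family cytokine, had separate ranges under 2-fold with a difference of 0.97 ± 0.18. Il1rn, the receptor antagonist, differed by -1.32 ± 1.16, and 0 of 14 cytokines and mediators were called, with a median of 0.07. Of 20 NF-kB subunits and regulators 1 was called higher, Nfkbiz, an inducible nuclear IκB protein, at 50.1, 51.4, 50.3 and 29.2 CPM in the Fos-high mice and at 15.4 to 22.3 CPM (median 19.2) in the Fos-low mice. Nfkbid had separate ranges at 0.77 ± 0.23, whereas Nfkbia, the classical feedback inhibitor, overlapped at 0.63 ± 0.30, and the NF-kB median was -0.03. Of 18 Toll-like receptors and their proximal signaling genes 0 were called, with a median of -0.02.

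Histone genes formed another group among the higher genes and were picked by their Hist symbols after the values were seen. The filter was passed by 20 of 68 such genes, and 3 of the 20 had a Fos-low mean under 1 CPM and passed through the Fos-high mice. Of these 20, 9 were called higher and 0 lower, against 0.855% and 0.205% of all genes. Of the 9, 7 had at least 1 CPM in both sets, and the other 48 histone genes are not described. The kit primes on poly(A), and most replication-dependent histone transcripts lack a poly(A) tail, so these levels need not follow their total transcript. Hist4h4 was at 15.9, 29.9, 14.7 and 13.8 CPM in the Fos-high mice and at 0.219 to 8.75 CPM (median 0.687) in the Fos-low mice. Hist1h2bg was at 21.7, 16.2, 14.7 and 22.98 CPM in the Fos-high mice and at 1.39 to 5.72 CPM (median 2.25) in the Fos-low mice. Both had their highest Fos-low value in M-0344. Hist1h1c, a linker histone, was at 152, 91.5, 98.5 and 99.0 CPM in the Fos-high mice and at 15.9 to 45.8 CPM (median 23.5) in the Fos-low mice. Hist1h3e was at 13.1, 12.2, 8.44 and 17.6 CPM in the Fos-high mice and at 0.854 to 6.06 CPM (median 1.19) in the Fos-low mice. The ranges of these 4 genes were separate, and no single Fos-high mouse was the highest in all of them. Summed over the 20 genes, the Fos-high mice had 444, 356, 353 and 369.5 CPM. M-0344 had 299 CPM, the other Fos-low mice 122 to 225, and WT and heterozygous mice 113 to 197. This Fos-low mouse of the 03xx range was thus between the sets in histone genes and above all other Fos-low mice in 16 of the 20, while its Fos was 5.41 CPM by the rule. H3f3b, which encodes the replication-independent histone H3.3, was at 2067, 2123, 2306 and 1527 CPM in the Fos-high mice and at 723 to 926 CPM (median 802) in the Fos-low mice. Reads of near-identical histone copies such as Hist2h2aa1 and Hist2h2aa2 could have been divided between them by the authors' counting.

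Genes with few exons made up a larger share of the higher genes than of all genes that passed. This is a description. The genes were not matched for level, and 31 of the 100 higher genes had a Fos-low mean under 1 CPM. Of 99 higher genes found in the GRCm38 annotation, 44 (44.44%) had a single exon, against 7.39% of 11651 annotated genes that passed the filter, and 72.73% had at most 3 exons against 17.84%. Their median span was 2.43 kb against 20.1 kb. Among protein-coding genes alone, 17 of 50 higher genes (34.0%) and 2.09% of all had a single exon. Jun, Ier2 and Hspa1a, described above, were among the single-exon genes. The share of single-exon genes was 13.9% among the 383 genes called with no fold threshold and 51.1% among those of at least 4-fold. Single-exon genes were present on the lower side as well, making up 10 of 23 annotated lower genes, but 1 of the 11 protein-coding ones. The library kit does not mark strand, so the antisense genes among the 100, such as Gm11175 and 9430060I03Rik, cannot be told from genes that overlap them. The 4 snoRNA genes among the 100 had identical values in the homozygous mice (means of 3.33 against 0.66 CPM) and are reported as uncertain, since their reads may be shared.

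Lower genes were fewer and closer to the floor. Rsrp1, an arginine- and serine-rich protein gene, was the highest-expressed of them, at 797, 861, 754 and 878 CPM in the Fos-high mice and at 1207 to 2076 CPM (median 1777) in the Fos-low mice. WT and heterozygous mice had 1513 to 2338 CPM of Rsrp1, above every Fos-high mouse. The other 23 lower genes had means of at most 13.2 CPM in the Fos-low mice. F13a1, coagulation factor XIII A, was at 7.19, 7.41, 6.56 and 3.11 CPM in the Fos-high mice and at 10.1 to 15.5 CPM (median 13.9) in the Fos-low mice. F13a1 and Cbr2, both made by macrophages at the borders of the brain, were the 2 lower genes of a fixed marker list of that cell type, and Mobp, a myelin protein, was the 1 lower gene of the oligodendrocyte list. Mobp was at 0.300, 1.02, 1.43 and 1.95 CPM in the Fos-high mice and at 2.29 to 4.64 CPM (median 3.01) in the Fos-low mice. Tubb4a, a tubulin of neurons and oligodendrocytes picked after its values were seen, differed by -1.70, with 0.539 to 1.15 CPM against 1.61 to 4.94 CPM. None of these 3 genes exceeded 15.5 CPM in any homozygous mouse. A130014A01Rik, Gm17132, Gm20342, 3110056K07Rik, Gm38042 and 1 gene without a symbol were, besides F13a1, Rsrp1, Evi2 and Psat1, the 10 largest decreases at 8 CPM or more, from -1.16 to -0.78 on the log2 scale. Under 2-fold but with separate ranges were Lyz2, lysozyme, with -0.53 ± 0.29, Kcnq1ot1, an imprinted non-coding RNA, with -0.74 ± 0.29, and the glycolytic enzymes Pgam1 with -0.28 ± 0.11 and Ldha with -0.18 ± 0.08.

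Markers of other cells had medians away from 0 in a few lists. All 8 border macrophage markers that passed lay below 0 in the Fos-high mice under each of 3 scalings, with a median of -1.11. Of the 8, 2 were called lower, against 0.205% of all genes. Their sum was 6.57 to 18.9 CPM in the Fos-high mice, 25.04 to 42.1 in the Fos-low mice, 16.2 to 67.9 in heterozygous mice and 8.05 to 38.0 in WT littermates. Mrc1, a defining marker, was listed at 0 in every mouse and lies in one of the empty stretches. The sets did not overlap in this sum, and its part in the lower genes was not tested. The 7 monocyte and neutrophil markers that passed had a median of 2.16 and sums of 35.4 to 111 CPM in the Fos-high mice, 15.2 to 95.9 in the Fos-low mice, 5.71 to 62.3 in heterozygous mice and 7.11 to 47.0 in WT littermates. Ngp, S100a8 and S100a9, granule proteins of neutrophils, differed by 2.54 ± 2.69, 2.29 ± 2.54 and 2.28 ± 2.43, with sets that overlapped. Of the 7 markers 6 lay above 0 and 1 below, at -1.47, and 0 were called. The 3 haemoglobin genes that passed had a median of 3.28 and sums of 0.0753 to 51.9 CPM against 0 to 12.3 CPM. Whether blood cells had a part in the higher genes was not tested. Neuron markers summed to 5.45 to 8.34 CPM in the Fos-high mice, 4.96 to 9.94 in the Fos-low mice, 14.6 to 34.0 in heterozygous mice and 12.7 to 39.4 in WT littermates, and 2 of 13 passed. Astrocyte markers had a median of -0.46 over 6, oligodendrocyte markers of -0.41 over 5, endothelial and mural markers of 0.52 over 3, and a single lymphocyte marker passed, Cd79b.

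The lists of microglial state had no gene called between the sets. Over all genes only 0.855% were called higher and 0.205% lower, so 0 calls in lists of this size is near the share over all genes. Of 19 homeostatic genes 0 were called, with a median of 0.02, and P2ry12 and Cx3cr1 were among those near 0 (0.04 ± 0.17 and 0.09 ± 0.11). Rhob, 0.88 ± 0.22, was the only homeostatic gene with separate ranges and also belongs to the feedback list. All 19 disease-associated microglia genes that passed lay below 0 under each of the 3 scalings, with a median of -0.25 and 0 of 19 called. Spp1, osteopontin, was at 3.65, 4.58, 5.65 and 8.43 CPM in the Fos-high mice and at 4.59 to 28.6 CPM (median 8.61) in the Fos-low mice, a difference of -0.77 ± 0.78. Cst7, a cystatin, was at 7.61, 9.81, 6.18 and 8.25 CPM in the Fos-high mice and at 9.80 to 15.9 CPM (median 11.5) in the Fos-low mice, a difference of -0.62 ± 0.27. Both sets overlapped for Spp1 and, narrowly, for Cst7. Ctsl, a lysosomal protease, differed by -0.50 ± 0.24 and Apoe by -0.33 ± 0.45. Lyz2 had the single separate range of the list, at 243, 353, 349 and 189.9 CPM in the Fos-high mice and at 364 to 479 CPM (median 379) in the Fos-low mice, and WT and heterozygous mice had 99.1 to 183 CPM. MHC class II genes had a median of -0.10 over 7, interferon-stimulated genes of 0.06 over 21 and glycolysis and hypoxia genes of -0.12 over 16, each with 0 called. For comparison, the median over all genes was 0.00338.

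**Figure D4:**
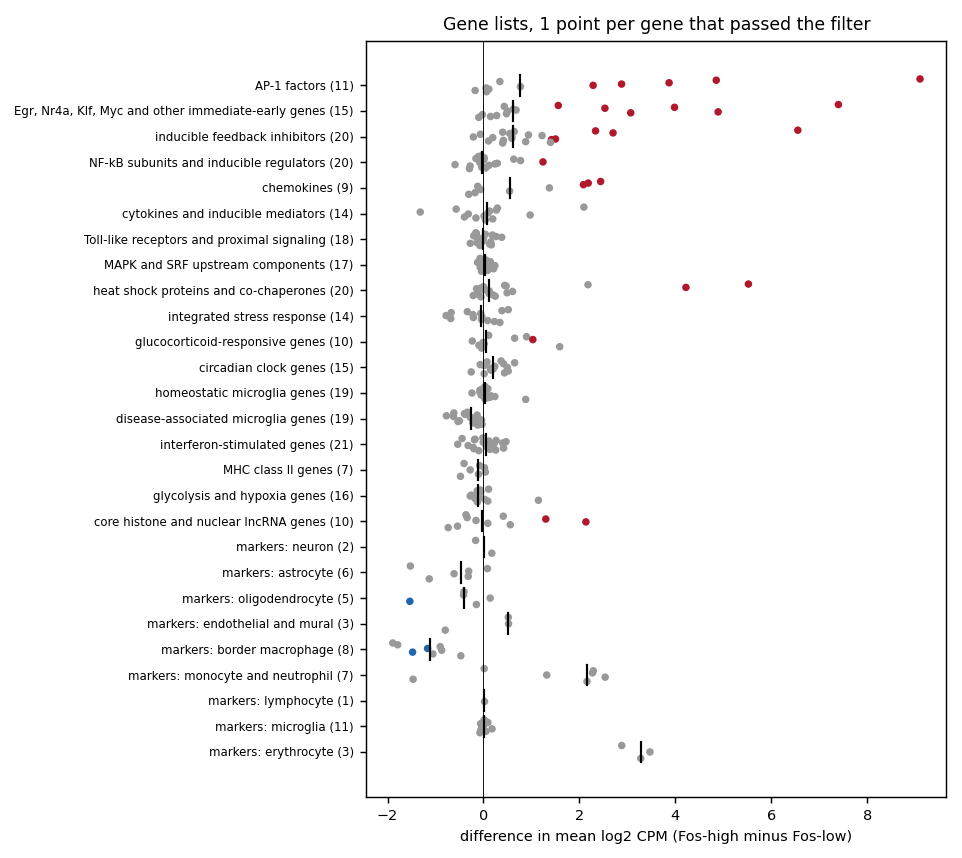
Difference in mean log2 CPM (Fos-high minus Fos-low) of each gene that passed the filter, 1 row per list with the number of genes in brackets. Black ticks are list medians, red points genes called higher and blue points genes called lower (ranges apart, at least 2-fold). Red points are found in the AP-1, immediate-early, feedback, heat shock, chemokine and histone rows and singly in the NF-kB and glucocorticoid rows, and all points of the disease-associated and border macrophage rows lie left of 0.

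The genes called between the sets were also placed against the 13 WT and heterozygous mice. Since these genes were chosen for high levels in the Fos-high mice, the counts are a description. All 4 Fos-high mice were above all 13 in 76 of the 100 higher genes, against 3.59% of all 11702 genes. The median of the Fos-low mice lay within the range of the 13 in 85 of the 100, the same share as over all genes (85.0%). In 5 of the 100, Egr1, Ccl2, Ccl3, Nfkbiz and Hist1h3e, all 6 Fos-low mice were above all 13 as well, against 0.923% of all genes. Of the 24 lower genes, all 4 Fos-high mice were below all 13 in 8, against 2.73% of all genes, and the Fos-low median was within the range in 24 of 24. The share of counts on the 100 most abundant genes was 30.9% to 31.9% in Fos-high and 29.6% to 32.8% in Fos-low mice.

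**Figure D5:**
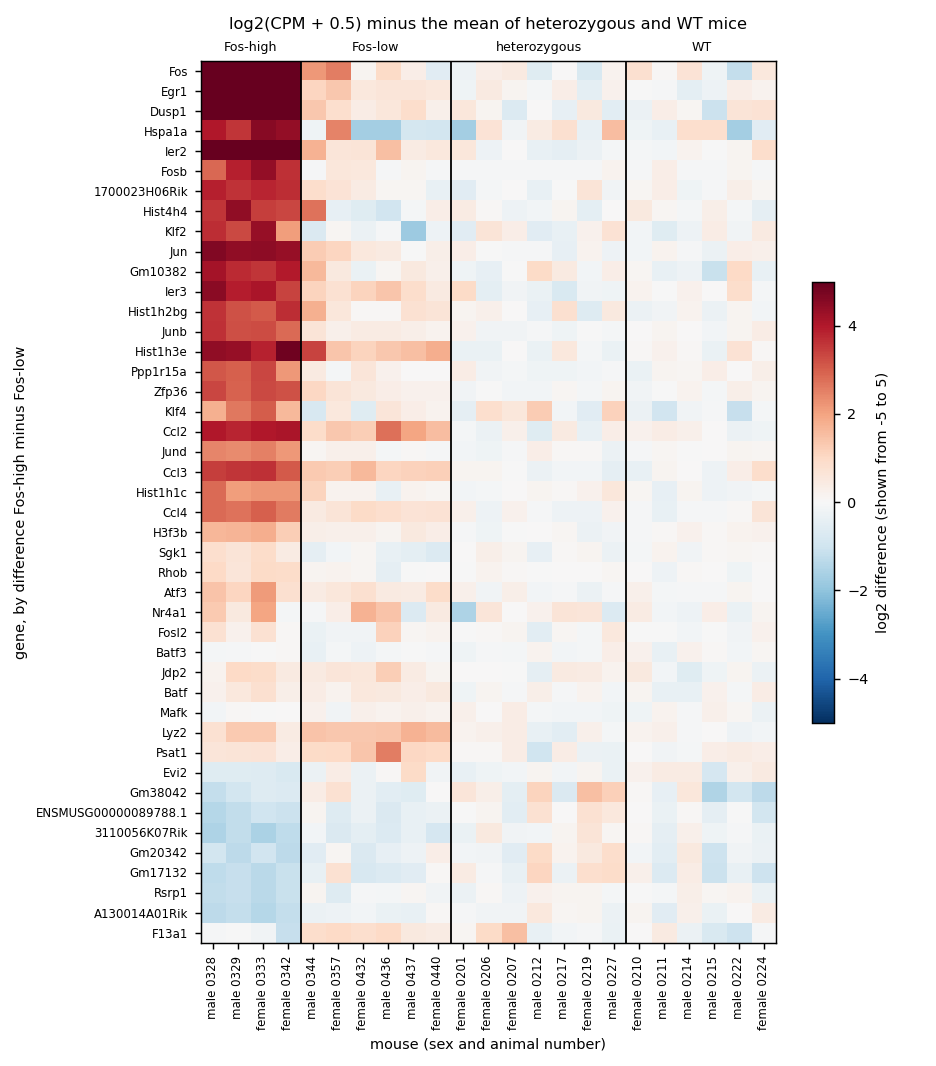
Level of 44 genes in each of 23 mice, as log2(CPM + 0.5) minus the mean of the heterozygous and WT mice, ordered by the difference between Fos-high and Fos-low mice, with the sets divided by lines. The upper rows are high in the 4 Fos-high mice, and the histone rows and Jun also show M-0344 above the other Fos-low mice, whereas Lyz2 is raised in both sets of homozygous mice.

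The 4 homozygous mice of the 04xx range, taken by the number in their title and all Fos-low, were compared with 6 WT mice by edgeR's quasi-likelihood test in a fit of 17 mice with sex. Of 13090 genes tested, 327 passed an adjusted p of 0.05 and a fold change of 1.5, 154 higher (1.18%) and 173 lower (1.32%), and 2685 had an unadjusted p below 0.05. Of the 100 genes higher in Fos-high mice 87 could be tested, and 5 were higher (Ccl2, Ccl3, Ccl4, Nfkbiz and Hist1h3e) and 2 lower in the 04xx mice, both of them among the 4 snoRNA genes with identical values in the homozygous mice. Of the 24 genes lower in Fos-high mice 24 were tested and 0 called. Since the 04xx mice are part of the low set, their level in these genes, and in Fos above all, was bounded by the selection, and nothing is read from the genes that missed the threshold. The log2 fold change of Fos was 0.12 ± 0.63 (SE), and it turned to -0.37 without M-0436 and to -0.15 without WT mouse M-0222. Dusp1 had a log2 fold change of 0.37 ± 0.35 (SE, adjusted p = 0.603). Egr1 had a log2 fold change of 0.62 ± 0.19 (SE, adjusted p = 0.0608), and it passed with DESeq2 (adjusted p = 0.0352) and limma-voom (adjusted p = 0.0402). By edgeR, Egr1 missed the threshold with all 23 mice in the fit (adjusted p = 0.750). It also missed it with each mouse left out (adjusted p from 0.0503 to 0.142). Ier2 had a log2 fold change of 0.66 ± 0.24 (SE, adjusted p = 0.107), and it passed without WT mouse F-0224 (0.85, adjusted p = 0.0323). By edgeR, Ier2 fell to 0.23 without M-0436 (adjusted p = 0.604) and missed the threshold with all 23 mice in the fit (adjusted p = 0.623).

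Of the 9 chemokines tested, 6 were higher in the 04xx mice than in WT littermates, against 1.18% of all genes. Ccl2 had a log2 fold change of 2.22 ± 0.33 (SE, adjusted p = 4.96e-04). Ccl3 had a log2 fold change of 1.08 ± 0.19 (SE, adjusted p = 0.00229) and Ccl4 a log2 fold change of 0.73 ± 0.16 (SE, adjusted p = 0.0102). In mean levels Ccl3 was at 8.93 ± 3.23 CPM (SD, n = 6) in WT and 19.6 ± 2.93 CPM (SD, n = 6) in Fos-low mice, against 89.7 ± 15.2 CPM (SD, n = 4) in Fos-high mice. Ccl7 (2.98, adjusted p = 0.0317), Ccl12 and Cxcl16 were the others. Nfkbiz had a log2 fold change of 1.08 ± 0.22 (SE, adjusted p = 0.00645), and with Tnfaip2 and Bcl2a1a, kept in 3 and 9 of 10 fits, 3 of 21 NF-kB genes were higher. The call of Ccl2, Ccl3, Ccl4 and Nfkbiz held when each of the 10 mice was left out in turn, that of Ccl7 in 2 of 9 fits and that of Atf3 (1 of 10 AP-1 genes, 0.59, adjusted p = 0.00965) in 5 of 10. Of heat shock genes 0 of 19 were called. Hist1h3e was called higher (adjusted p = 0.0475), in 1 of 10 such fits.

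Some lists without a gene called between Fos-high and Fos-low mice had genes called in the 04xx mice. The counts that follow stand against 1.18% higher and 1.32% lower over all 13090 genes, and a call is said to be kept in the fits with 1 of the 10 mice left out. Disease-associated genes had 6 of 19 higher, Cst7, Axl, Spp1, Ctsl, Lyz2 and Fth1, with Fth1 kept in 6 of 10 fits. Lyz2 had a log2 fold change of 1.499 ± 0.13 (SE, adjusted p = 6.17e-07) and Cst7 a log2 fold change of 1.08 ± 0.23 (SE, adjusted p = 0.00809), both kept in all 10 fits, whereas Spp1, at 1.37, kept its call in 2 of 10, with 0.41 (adjusted p = 0.581) without M-0436. MHC class II genes had 4 of 8 higher, with a log2 fold change of 1.77 ± 0.37 (SE, adjusted p = 0.00678) for H2-Aa, the antigen-presenting class II alpha chain, and a log2 fold change of 1.02 ± 0.28 (SE, adjusted p = 0.0363) for its invariant chain Cd74, kept in 9 and 3 of 10 fits. Il1a, Il6 and Plaur were 3 higher genes of 14 cytokines and mediators, with Il6 kept in 4 of 10 fits. Among 18 Toll-like receptor genes Tlr1 and Irak3 were higher and Tlr9 lower. Psat1 had a log2 fold change of 1.54 ± 0.28 (SE, adjusted p = 0.00259), and its values in the 04xx mice reached 64.4 CPM in M-0436. Singly, Myc, Socs3, Map3k8, Mt1, Neat1 and Ccr2 were higher. Of these calls Ccr2 was kept in all 10 fits, Myc in 9, Socs3 and Mt1 in 8, Neat1 in 4 and Map3k8 in 3. Ifit2 and Ifitm3 were 2 higher genes of 20 interferon-stimulated genes, kept in 4 and 2 of 10 fits. Hlf, Sparc and Slc2a1 were lower, the last kept in 8 of 10 fits. Of neuron markers 2 of 8 were lower, Snap25 with a log2 fold change of -2.70 ± 0.49 (SE, adjusted p = 0.00244) and Nrgn (kept in 6 of 10 fits), as were Mt3 of the astrocyte and Pecam1 of the endothelial list. Homozygous mice and WT mice differ in number range as well as genotype, and the range cannot be told apart from the genotype here.

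For heterozygous mice the same test called no gene. In the same fit 0 of 13090 genes (0%) differed between heterozygous and WT mice, while 1014 had an unadjusted p below 0.05, DESeq2 called 1 gene and limma-voom 0. Fos had a log2 fold change of -0.44 ± 0.56 (SE, adjusted p = 0.871) there and Jun a log2 fold change of -0.15 ± 0.12 (SE, adjusted p = 0.777). The 2 comparisons share the WT mice. Within the 13 WT and heterozygous mice, where Fos had only 1 to 23 counts per library, the levels of 10 genes were compared with Fos (permutation tests with 100000 resamples, Benjamini-Hochberg over 10 genes). None of the 10 passed. Hspa1a had the largest coefficient, with r = 0.490 (p = 0.0859, adjusted p = 0.859) and rho = 0.278 (p = 0.357), and r = 0.0978 without the 2 mice farthest from the median of Fos. With deviations from the mean of each genotype its r was 0.521. Jun had the lowest, r = -0.391 (p = 0.189, adjusted p = 0.878). Within the 7 heterozygous mice r was 0.834 for Egr1 (exact permutation p = 0.0314, adjusted p = 0.627 over 20 tests within genotypes) and -0.674 for Dusp1 (exact permutation p = 0.113, adjusted p = 0.857). Within the 6 WT mice r was -0.521 for Egr1 (exact permutation p = 0.272, adjusted p = 0.857), opposite in sign, and -0.195 for Dusp1 (exact permutation p = 0.778, adjusted p = 0.984). With so few counts of Fos, neither a relation nor its absence can be read from these values.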

How the data were processed

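RNA-seq of FACS-sorted microglia from 23 mice was analyzed. The authors aligned 50-base single-end reads of poly(A)-primed, unstranded libraries to the mouse genome (mm10) and estimated gene counts with RSEM, and per the labels DESeq2 was used for their own tests. The deposited table holds these expected counts for 43411 genes, normalized neither for depth nor for length. They were rounded to whole numbers, and 42929 identifiers were matched to symbols of GRCm38. Total counts of 10812969 to 16734846 per mouse leave genes with few counts imprecise. How RSEM divided reads between near-identical copies is not given in the sources used here. A WT female and a heterozygous male with labels but no column were not analysed here.

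Fos-high and Fos-low homozygous mice were set by Fos above 100 CPM of total counts. All other levels are CPM on TMM-scaled library sizes, with a prior count of 2 on the log2 scale. Genes with a mean of at least 1 CPM over the 10 homozygous mice were described, and a gene was called when the ranges of the sets were apart and the means differed by at least 2-fold. No test of this split is reported, since it was made on a measured level. Tests of animal number, range and sex against it were computed as planned and left out for the same reason. The 4 homozygous mice of the 04xx range and the heterozygous mice were each set against the WT mice with quasi-likelihood F-tests of edgeR (edgeR 4.0.16, R 4.3.3, filterByExpr, genotype and sex, Benjamini-Hochberg adjustment, with genes called where the adjusted p was below 0.05 and the fold over 1.5). It was checked on simulated data with 200 changed genes.

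Named were Fos, Egr1, Dusp1 and Ier2, the 15 largest increases and 10 largest decreases with separate ranges and at least 8 CPM, up to 4 members of each gene list by size, all AP-1 members and the 10 genes correlated with Fos. Further list members were added for their role, and genes said to be picked after their values were seen lie outside this rule. The members and lists were chosen with earlier results of these data known. Alternatives covered scaling, filters, thresholds, prior counts, number range, sex, DESeq2 1.42.0, limma-voom (limma 3.58.1), other samples in the fit, no sex term and each mouse left out. Those for single-exon shares, list medians and a filter in each set were added after seeing the data.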

Additional observations from a re-analysis of the deposited data

Results flagged for a closer look

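A mouse was listed when it stood apart from the rest of its set by Dixon's criterion, and 8 of 60 pairs of gene and set met it. The rate of about 1 in 20 for this criterion assumes normal values and independent pairs. Here the values were CPM of genes largely picked for their differences, so no excess over that rate is read. Of the 8, 4 were values of M-0344, in histone genes and Gm10382. M-0344 had 8.75 CPM against 0.219 to 1.23 CPM in the other Fos-low mice for Hist4h4, 5.72 CPM against 1.39 to 2.59 CPM in the other Fos-low mice for Hist1h2bg, 6.06 CPM against 0.854 to 1.67 CPM in the other Fos-low mice for Hist1h3e and 6.73 CPM against 1.40 to 2.81 CPM in the other Fos-low mice for Gm10382. These values lie below those of every Fos-high mouse. F-0357 had 8.61 CPM against 0 to 0.875 CPM in the other Fos-low mice for Hspa1a. M-0436 had 64.4 CPM against 20.7 to 27.6 CPM in the other Fos-low mice for Psat1. Among Fos-high mice, M-0329 had 29.9 CPM against 13.8 to 15.9 CPM in the other mice for Hist4h4, and F-0342 had 4.26 CPM against 4.67 to 4.73 CPM in the other mice for Evi2. Of 122 named genes, 0 had set ranges that were apart in both sexes and in opposite directions, which was compared without a test. Genes whose set ranges overlapped in either sex could not be counted as differing.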

How the results depend on the processing

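The 100 genes called higher became 172 with a filter of 10 summed counts, 50 with a filter of 5 CPM in 4 mice, 69 with at least 1 CPM in each set (added after seeing the data), 383 with no fold threshold, 151 at 1.5-fold and 48 at 4-fold. They numbered 169 in the 03xx mice alone (86 shared), 168 in females alone (92 shared) and about 2.0e+02 in males alone (95 shared), where fewer mice make separate ranges more frequent. The 24 called lower became 68, 4, 14, 205, 69 and 0 under the same filters and thresholds, 124 in the 03xx mice (19 shared), 146 in females (19 shared) and 137 in males (17 shared). Leaving out 1 mouse gave 101 to 122 higher and 30 to 48 lower genes, the latter 42 without F-0333, 48 without F-0342, 45 without M-0328, 43 without M-0329, 42 without F-0432 and 39 without M-0437. A threshold of 10 or of 500 CPM of Fos gave the same sets. Differences of named genes moved by more than 1 SD in 35 and by less in 2283 recomputations, and 54 list medians stayed within it. The recomputations for genes include the Fos thresholds of 10 and 500 CPM, which could not move a difference. A change of sign was counted only for genes called between the sets, with 0 found. For the other named genes it was not counted.

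For the 04xx mice, 154 higher and 173 lower genes became 336 and 470 with no fold threshold, 213 and 251 with DESeq2, and 129 and 123 in a fit of the 2 groups alone. With a mouse left out there were 116 to 191 higher and 114 to 239 lower genes, the 114 without M-0437. The fold change of Fos ranged from -0.37 to 0.47 with a mouse left out, turning to -0.37 without M-0436 and to -0.15 without WT mouse M-0222, and the cause was not tested. Heterozygous mice had 1 higher gene with DESeq2, 0 to 1 with a mouse left out, and 0 lower genes. Without the 2 mice farthest in Fos, correlations with Fos turned to 0.0409 for Dusp1, 0.0118 for Jun, 0.337 for Zfp36 and 0.234 for Ccl3, the last 2 from -0.152 and -0.0243.

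Single-exon genes were 34.0% of the protein-coding genes called higher, 13.9% of all at no fold threshold, 34.2% at 1.5-fold and 51.1% at 4-fold. Limits are the depth, which leaves genes of a few CPM imprecise, the 4 against 6 mice, and the 03xx range, which alone holds Fos-high mice. No paired analysis was possible because the groups share no animal number.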

Other observations

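Within the Fos-low set, M-0436 held the highest level of several secreted or cytokine-responsive genes, picked after their values were seen. Tnf was at 16.3 CPM there and at 2.83 to 6.59 CPM in the other 5 Fos-low mice. Socs3 was at 161 CPM against 38.6 to 68.1 CPM, and Spp1 at 28.6 CPM against 4.59 to 10.7 CPM. Fos in this mouse was 2.11 CPM by total counts.

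Of 20535 protein-coding genes in the table, 4966 (24.2%) were listed at 0 in all 23 mice. Of the runs of such genes on autosomes, 3 spanned over 19 Mb. The stretch chr1:115684756-136531511 held 155 consecutive ones over 20.8 Mb, chr1:143598800-163725232 held 115 over 20.1 Mb and chr2:3114224-22940266 held 91 over 19.8 Mb, on GRCm38. Of 413 genes in the lists used here, 16 were listed at 0 in all mice.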
